A study of Mus musculus with 7 samples.

Results

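The mRNAs of 63 translation initiation and elongation factor genes were followed in hippocampal synaptoneurosomes. The genes are those of 22248 in the deposited gene table whose mouse symbol begins with Eif or Eef followed by a digit. The X- and Y-linked eIF2 gamma genes Eif2s3x and Eif2s3y were left out, as were genes with a mean estimated count under 10 over the libraries. Of 68 genes with such a symbol, 3 lay under that limit: Eif4e1b at 0, Eef1akmt3 at 2.27 and Eif4ebp3 at 4.18 counts. The lowest genes kept were Eef1akmt4 at 67.4 and Eif2ak2 at 93.4. All 63 genes also passed the low-count filter of the test, so none drops out of the results.

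Synaptoneurosomes are a tissue fraction enriched in pinched-off presynaptic endings with their postsynaptic partners. They came from the hippocampus of wild-type C57Bl/6J female mice given AM6545 or vehicle sub-chronically. AM6545 is a cannabinoid CB1 receptor antagonist that enters the brain poorly. There were 4 AM6545 libraries (B, D, E and F) and 3 vehicle libraries (B, D and E). The sources used here give neither the age nor the dose, the duration or how many mice went into a library, so p-values measure only the spread between these libraries.

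Translation begins when eIF4E binds the mRNA cap and, with the scaffold eIF4G and the helicase eIF4A, recruits a small ribosomal subunit carrying eIF1, eIF1A, eIF2, eIF3 and eIF5. Elongation then uses eEF1A to deliver aminoacyl-tRNA and eEF2 to move the ribosome along. Phosphorylation of eIF2, binding of eIF4E by the 4E-BP inhibitors and phosphorylation of eEF2 are the classical brakes, and at synapses they are known for their part in local protein synthesis and plasticity. The data here are mRNA levels and carry no information on phosphorylation or protein.

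Several factor mRNAs are textbook members of the class that begins with a terminal oligopyrimidine tract, a C followed by an unbroken run of C and T, through which mTOR signalling controls their translation. The windows below were searched for such a run anywhere in them, not only at the transcription start. They are given because the class is compared as a group further on. They run from 5 bases before to 25 bases after the RefSeq transcription start (GRCm38.p6), 5′ to 3′ on the gene's strand. Capitals mark every C followed by at least 4 pyrimidines, searched only on the gene's strand as printed, with overlapping matches merged.
Eef1a1: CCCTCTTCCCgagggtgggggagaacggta
Eef2: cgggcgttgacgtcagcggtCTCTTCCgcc
Eif3f: gCTCTCTCTCTTTCTCggcaagatggcttc
Eif4b: tcggacgccgcgccaCCCCCTCgcgctgct
Eef1b2: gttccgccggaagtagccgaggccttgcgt
Eif3k: gcgctggtgctgaaagcgCCTTTCCCTTTg
Eif4ebp2: cgggacgaccgggcgagagcaggcgagttg
The first 5 belong to the known class, and the last pair are the lower genes with the smallest p-values in the comparison. In order, the windows lie at chr9:78481700-78481729 (minus strand), chr10:81176626-81176655 (plus), chr7:108934410-108934439 (plus), chr15:102073768-102073797 (plus), chr1:63176826-63176855 (plus), chr7:28981864-28981893 (minus) and chr10:61452645-61452674 (minus). A marked run was found in 4 of these 5 known members and not in the Eef1b2 window. It was also found in 19 of the 50 factor genes with a RefSeq start (38%), in 40.1% of 11390 tested genes with one, and in 38 of 57 ribosomal protein genes (66.7%). With so loose a motif the match is a description of letters and does not mark a gene as a member of the class.

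The libraries held 19174649 to 25894733 counts, and log2 levels correlated between libraries at r 0.976 to 0.992 across genes. Markers of synapses and excitatory neurons summed to 10200 to 10600 CPM (counts scaled by edgeR's TMM method to a common library size) in AM6545 and 10200 to 10900 in vehicle. Of these 8 genes 5 were lower, with Dlg4 at -0.52 (SE 0.21) and Nrgn at -0.37 (SE 0.14), both at an unadjusted p under 0.05 (edgeR; adjusted p 0.2998 and 0.276). Without vehicle B they stood at -0.28 and -0.22. Vehicle B stood apart in its mitochondrially encoded share of counts, 9.83% against 5.07% to 6.66% in the other libraries. Microglial markers were lower in AM6545 for 5 of 7 genes and summed to 679 to 714 CPM against 689 to 937. Of them 4 were lower at an unadjusted p under 0.05 (edgeR), beside 8.7% of all genes. That count was 1 with GC content and length corrected and 0 with the replicate block as well. Choroid plexus markers, which synaptoneurosomes should lack, were lower for 4 of 4, with 0 at that p, and summed to 398 to 1890 CPM against 1510 to 2700. They split into 2 higher and 2 lower with the replicate block and without AM6545 F. Oligodendrocyte markers summed to 17100 to 20200 and 16800 to 23000 CPM, astrocyte markers to 2250 to 2580 and 2280 to 2770, and endothelial markers to 9.55 to 14.2 and 8.78 to 13.6. The part of these other cells in the results on translation factors was not tested. In a bulk fraction, fewer cells or endings of a type and less RNA per cell cannot be told apart.

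Levels per transcript length, scaled to a common total, set the factors side by side in vehicle libraries. Eif5a, which helps ribosomes past difficult peptide bonds, was highest at 973 ± 88.4 (SD, n = 3), with Eef1a1 at 915 ± 5.67 and the start-site selection factor Eif1 at 783 ± 89.7 (both SD, n = 3). Eif5a and Eef1a1 differed by less than the spread of Eif5a. Eif4h at 390, the helicases Eif4a1 at 359 and Eif4a2 at 353, and Eif5, the activator of eIF2's GTPase, at 331 formed the next rank. The lowest were the eIF2 kinases Eif2ak4 at 3.45 ± 0.833 and Eif2ak2 at 1.49 ± 0.0142 (SD, n = 3). The inhibitors Eif4ebp2 at 8.41 ± 2.34 and Eif4ebp1 at 8.15 ± 1.81 (SD, n = 3) stood far under their target Eif4e at 151 ± 23.7 (SD, n = 3). Eef1akmt1 has no such value because its annotated transcripts did not match those counted.

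Together the 63 genes took 0.784% ± 0.0356 of counts in AM6545 (SD, n = 4) and 0.781% ± 0.00883 in vehicle (SD, n = 3). The AM6545 libraries B, D, E and F gave 0.796%, 0.793%, 0.732% and 0.813%, and vehicle B, D and E gave 0.776%, 0.791% and 0.776%. The groups overlapped. The summed mRNA of the factors was thus about equal, with AM6545 E the lowest library.

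Single factors differed little between the treatments. The log2 fold change of AM6545 over vehicle was positive for 37 factors and negative for 26, with a median of 0.04 against 0.01 over 14654 genes tested. It lay within 0.2 of 0 for 46 factors (73.0%, against 61.2% of all genes), where the median standard error was 0.11. With edgeR's quasi-likelihood test and Benjamini-Hochberg adjustment over all genes, 0 of 63 factors had an adjusted p under 0.05, beside 0.00682% of all genes (1 gene). The unadjusted p was under 0.05 for 10 factors (15.9%), 5 higher and 5 lower, beside 14.6% of all genes, 5.86% higher and 8.7% lower. DESeq2 and limma-voom with quality weights each called 1 factor, Eif4ebp2, beside 2.44% of the genes with an adjusted p in DESeq2 and 0.805% of genes in limma-voom. The groups did not overlap for 9 factors (14.3%), 3 higher and 6 lower, beside 13.8% of all genes, 6.63% higher and 7.19% lower. The factors' counts therefore lay near the background of the comparison.

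**Figure D1:**
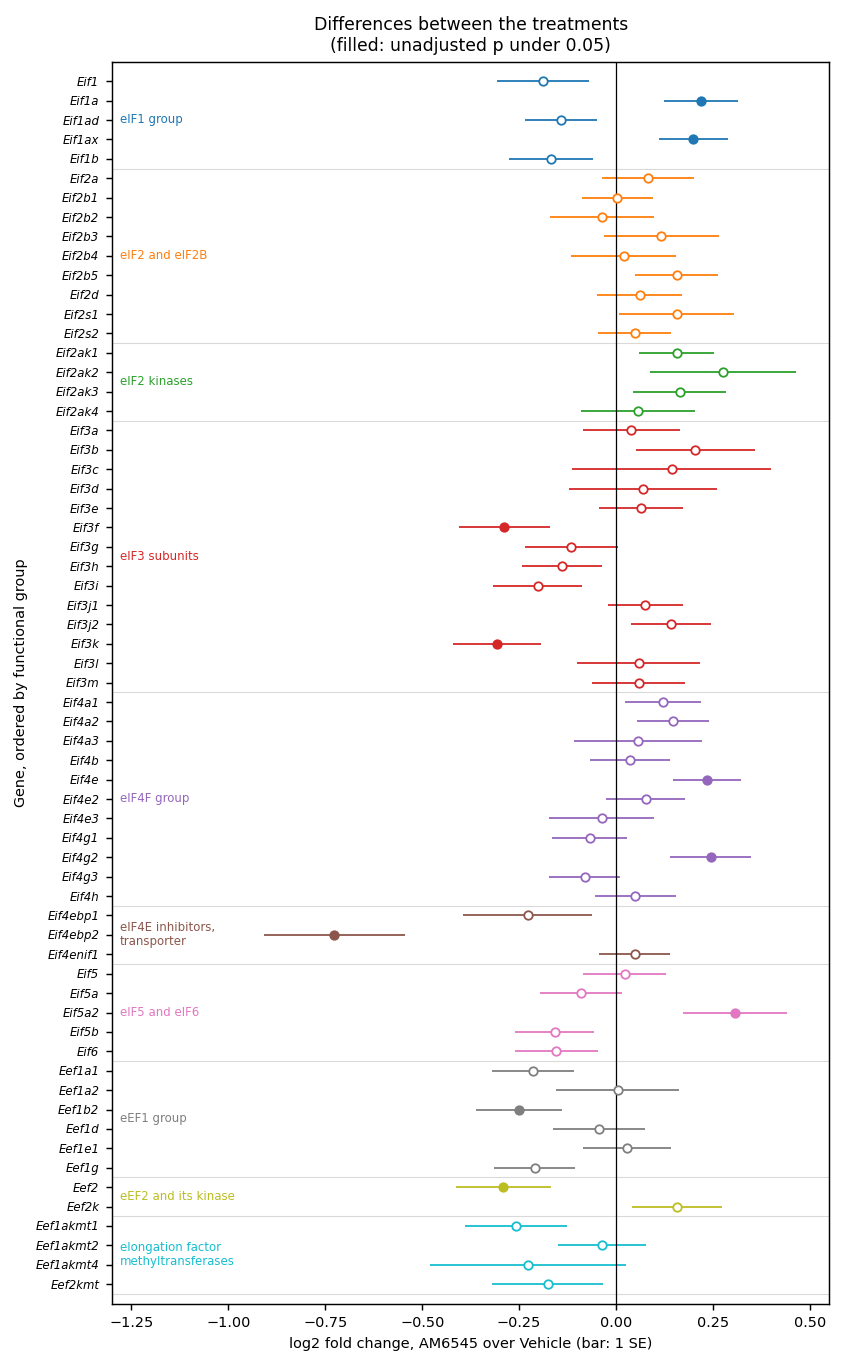
Log2 fold change of AM6545 over vehicle for each of the 63 factor genes, ordered and coloured by functional group, with bars of 1 standard error. Filled points mark the 10 genes with an unadjusted p under 0.05. Most points lie within 0.2 of 0, and Eif4ebp2 lies farthest from it at -0.73.

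The differences ran along sequence composition. Over 62 factors with annotated transcripts, Spearman's rho of the log2 fold change was -0.47 with GC content and 0.46 with transcript length. Over 14515 genes it was -0.42 and 0.26. These are descriptions across genes that share the same libraries. Eif5a2 and Eif4e, both higher, have low GC content and long transcripts, whereas Eif3k, lower, has the shortest transcripts of the factors at 781 bases. When each library's trend with these properties was removed by a lowess correction, 5 factors had an unadjusted p under 0.05, all lower: Eif4ebp2, Eif3f, Eef1a1, Eef2 and Eif1ad. The share over all genes was then 6.75%. The sign changed for 20 of the 63 factors.

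**Figure D2:**
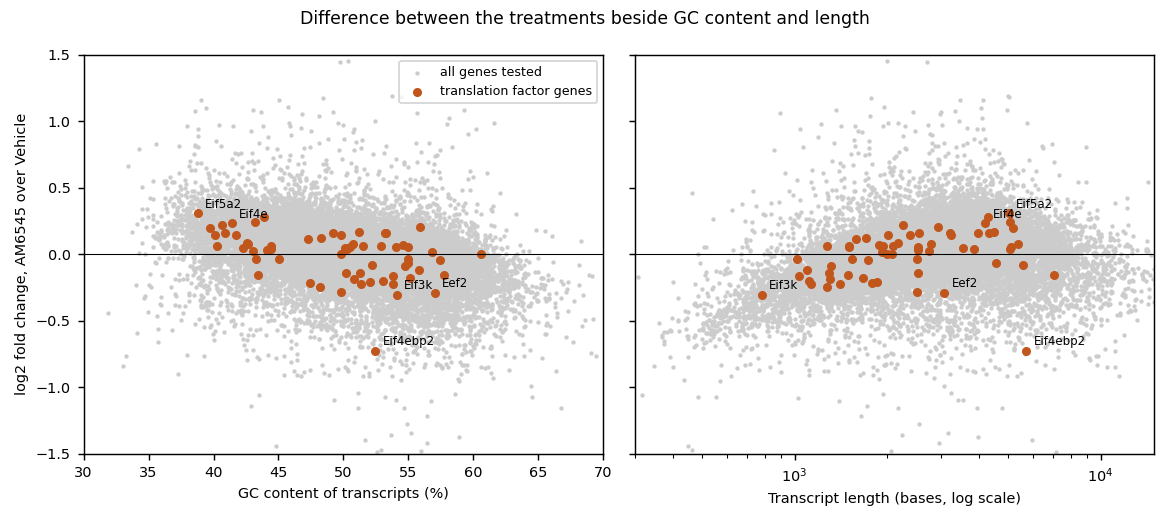
Log2 fold change of AM6545 over vehicle against the GC content of transcripts (left) and transcript length on a log scale (right), for all tested genes (grey) and factor genes (orange). The factors follow the slope of the other genes, with rho -0.47 for GC content, and Eif4ebp2 lies under the cloud at its GC content and length. Some genes lie outside the plotted range.

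Eif4ebp2 encodes 4E-BP2, the main 4E-BP of the brain, which keeps eIF4E from binding eIF4G. The gene (ENSMUSG00000020091.16) lies at chr10:61428491-61452661 on the minus strand (GRCm38). Its AM6545 libraries B, D, E and F held 15.4, 17.0, 16.1 and 17.2 CPM, and vehicle B, D and E held 37.0, 25.5 and 18.8 CPM. In CPM every AM6545 library lay under every vehicle library. Per transcript length the groups overlapped. Those levels were 5.145, 7.006, 6.859 and 5.857 in AM6545 B, D, E and F and 10.65, 8.604 and 5.983 in vehicle B, D and E. The AM6545 CPM were close together, while vehicle B was about 2-fold above vehicle E. The log2 fold change was -0.73 (SE 0.18) with an unadjusted p of 0.00188 and an adjusted p of 0.199 in edgeR.

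The size of that difference rested on the vehicle libraries. Without vehicle B it was -0.44 (edgeR, adjusted p 0.644), and without vehicle E it was -0.93 (adjusted p 0.0148). DESeq2 gave an adjusted p of 0.0221 and limma-voom 0.0465. Corrected for GC content and length, the difference was -0.68 (edgeR, adjusted p 0.725). The unadjusted p stayed under 0.05 in 19 of 19 settings. The adjusted p ranged from 0.0148 to 1 over them. The other inhibitor gene, Eif4ebp1, held 4.11 to 5.13 CPM in AM6545 and 4.22 to 6.04 in vehicle, with overlapping groups and a log2 fold change of -0.23 (SE 0.17). Eif4enif1, which encodes the eIF4E transporter 4E-T, differed by 0.05 (SE 0.09).

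Eif4e, the cap-binding factor, held 221, 234, 239 and 240.3 CPM in AM6545 B, D, E and F and 195, 208 and 192 CPM in vehicle B, D and E. All AM6545 libraries lay above all vehicle libraries. The log2 fold change was 0.23 (SE 0.09; edgeR, unadjusted p 0.0212, adjusted p 0.272), and 0.02 with that correction. The log2 ratio of Eif4ebp2 to Eif4e per length was -4.93 ± 0.164 in AM6545 (SD, n = 4) and -4.19 ± 0.497 in vehicle (SD, n = 3). By the two-sided exact permutation test its p was 0.0286, the smallest that 4 against 3 libraries allow, and 0.114 after adjustment over the 4 ratios tested. The gap was 0.74 in size with all libraries and 0.46 without vehicle B.

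In the eIF4F group 8 of 11 genes, Eif4e included, had positive fold changes, beside 51.4% of all genes. The unadjusted p was under 0.05 for 2 (18.2%), near the 14.6% of all genes, and for 0 of 11 once GC content and length were corrected. With the replicate block as well, 4 of 11 fold changes were positive. The other gene of the 2 was Eif4g2, which encodes DAP5, an eIF4G relative that lacks the eIF4E-binding part. It held 319, 336, 370.3 and 324 CPM in AM6545 B, D, E and F and 269, 321 and 264 CPM in vehicle B, D and E. Only vehicle D reached the AM6545 range, and the log2 fold change was 0.24 (SE 0.10; edgeR, adjusted p 0.315), or 0.10 corrected for GC content and length. The main scaffolds Eif4g1 and Eif4g3 differed by -0.07 (SE 0.10) and -0.08 (SE 0.09).

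The helicase genes Eif4a1 and Eif4a2 differed by 0.12 (SE 0.10) and 0.15 (SE 0.09). Eif4a1 held 312 to 374 CPM in AM6545 and 308 to 333 in vehicle, and Eif4a2 391 to 445 and 375 to 394. The groups overlapped for both. Eif4a2 made up 50% ± 1.78 of the pair per length in AM6545 (SD, n = 4) and 49.7% ± 2.31 in vehicle (SD, n = 3; exact permutation p 0.8). Eif4b, whose protein stimulates the helicase, differed by 0.04 (SE 0.10), and Eif4a3, the exon junction complex member of the family, by 0.06 (SE 0.17).

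**Figure D3:**
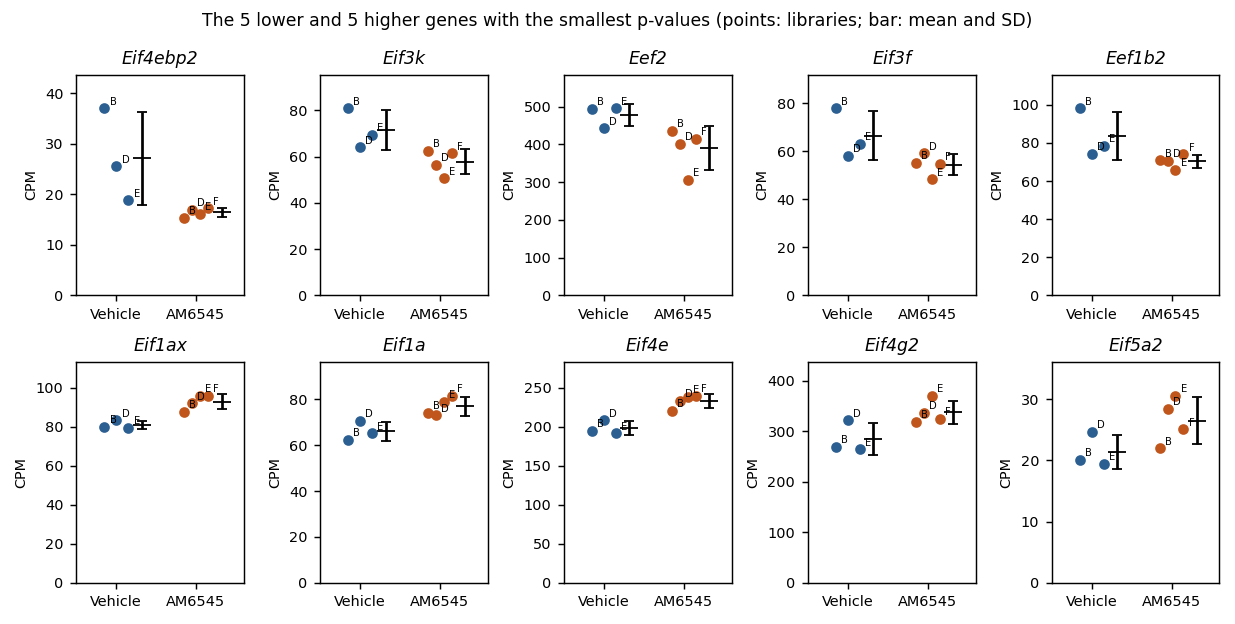
CPM in each library, labelled by its letter, for the 5 lower (top) and 5 higher (bottom) factor genes with the smallest p-values. Bars are the mean and SD of each group (3 vehicle, 4 AM6545), and axes start at 0. Eif4ebp2 spreads from 18.8 to 37.0 CPM in vehicle and from 15.4 to 17.2 in AM6545.

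The eIF1 group, which reads the start codon, split in sign. Eif1ax, the X-linked eIF1A gene, held 87.6, 92.1, 95.7 and 96.0 CPM in AM6545 B, D, E and F and 80.1, 83.2 and 79.3 in vehicle B, D and E. Its autosomal relative Eif1a held 73.0 to 81.7 CPM in AM6545 and 62.5 to 70.6 in vehicle. Neither gene's groups overlapped, with log2 fold changes of 0.20 (SE 0.09) and 0.22 (SE 0.09) and edgeR adjusted p-values of 0.331 and 0.318. Corrected for GC content and length the differences were 0.03 and 0.04. Eif1 differed by -0.19 (SE 0.12), with 449 to 503 CPM in AM6545 and 467 to 656 in vehicle. Its highest library was vehicle B. Eif1b and Eif1ad differed by -0.17 (SE 0.11) and -0.14 (SE 0.09).

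The next group held eIF2 genes, which deliver the initiator tRNA, and eIF2B genes, which recharge eIF2 with GTP. By symbol it also held Eif2a and Eif2d, whose proteins are subunits of neither. The group had 8 of 9 positive fold changes, beside 51.4% of all genes. That count was 5 of 9 with GC content and length corrected, 5 without vehicle D and 3 with 1 surrogate variable. None of the 9 reached an unadjusted p under 0.05 with all libraries in edgeR, and all lay within 0.16 of 0. Eif2s1, which encodes the alpha subunit that the stress kinases phosphorylate, held 84.4, 76.6, 62.4 and 78.9 CPM in AM6545 B, D, E and F and 57.3, 60.7 and 85.8 in vehicle B, D and E. Vehicle E was the highest library and AM6545 E lay just above the other vehicle libraries, so the groups overlapped (0.16, SE 0.15, or -0.06 corrected). Eif2s2, the beta subunit, differed by 0.05 (SE 0.09). Eif2b5, the catalytic subunit of eIF2B, held 76.6 to 87.9 CPM against 64.8 to 82.7 (0.16, SE 0.11).

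All 4 eIF2 kinase genes had positive fold changes, beside 51.4% of all genes, and none had an unadjusted p under 0.05. The positive count was 3 of 4 without vehicle B, with 1 surrogate variable and with limma-voom. The group's median was 0.16, or 0.08 with GC content and length corrected. Eif2ak2 encodes PKR, the double-stranded RNA sensor. It held 3.34 to 5.32 CPM in AM6545 and 3.31 to 3.83 in vehicle (0.28, SE 0.19). Eif2ak3, which encodes the endoplasmic reticulum stress kinase PERK, held 15.99 to 20.8 and 14.7 to 16.8 CPM (0.16, SE 0.12). Eif2ak4, which encodes the amino acid sensor GCN2, held 8.66 to 10.2 and 7.25 to 10.8 CPM (0.06, SE 0.15). The haem-regulated kinase gene Eif2ak1 was the most abundant of the 4 at 84.8 to 91.9 and 71.5 to 85.3 CPM (0.16, SE 0.10). All 4 pairs of groups overlapped.

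The 14 genes of eIF3, the scaffold that holds the small subunit to eIF4G, had 9 positive and 5 negative fold changes. The split turned to 10 of 14 lower without AM6545 B, 9 without vehicle B and 12 with 1 surrogate variable. The unadjusted p was under 0.05 for 2 (14.3%), both lower, beside 14.6% of all genes. Eif3k held 62.7, 56.4, 50.7 and 61.5 CPM in AM6545 B, D, E and F and 81.0, 64.1 and 69.5 in vehicle B, D and E. Its groups did not overlap, with a log2 fold change of -0.31 (SE 0.11; edgeR, adjusted p 0.266). Corrected for GC content and length it was 0.03. Eif3f held 55.2, 59.1, 48.4 and 54.8 CPM in AM6545 and 77.9, 58.1 and 63.2 in vehicle. AM6545 D lay above vehicle D, and the difference was -0.29 (SE 0.12; adjusted p 0.306) and -0.37 after the correction. Without vehicle B it was -0.15.

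Many eIF3 subunits spread more between libraries of a group than between the groups. Eif3c, a core subunit, held 225, 157, 126 and 172 CPM in AM6545 B, D, E and F and 104, 137 and 221 in vehicle B, D and E. AM6545 B and vehicle E were almost equal at the top, and vehicle B and AM6545 E were at the bottom (0.14, SE 0.26). Eif3a and Eif3b, the other large core subunits, held 115 to 159 and 124 to 162 CPM in AM6545 and 115 to 146 and 94.8 to 154 in vehicle (0.04, SE 0.12, and 0.20, SE 0.15). For Eif3b the difference was 0.42 without vehicle E (edgeR, adjusted p 0.0603), where 25.7% of all genes had an unadjusted p under 0.05. It was 0.06 without vehicle B and 0.12 without AM6545 B. Eif3e and Eif3h differed by 0.06 (SE 0.11) and -0.14 (SE 0.10).

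AM6545 B was the highest AM6545 library for 10 of 14 eIF3 genes (71.4%, against 29.5% of all genes tested), and AM6545 E the lowest for 12 (85.7%, against 32.7%). Vehicle E was the highest vehicle library for 9 (64.3%, against 38.0%). The eIF3 genes took 0.134%, 0.117%, 0.104% and 0.122% of counts in AM6545 B, D, E and F and 0.105%, 0.111% and 0.132% in vehicle B, D and E. The group of eIF2 and eIF2B genes, with Eif2a and Eif2d, ordered the libraries in a like way. AM6545 E was lowest for 8 of 9 and vehicle E highest for 8 of 9 (88.9% each). The pattern was seen across libraries irrespective of treatment and was noticed after the values were seen. Eif3f, Eif3h, Eif3i and Eif3k went another way, with vehicle B as their highest library.

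**Figure D4:**
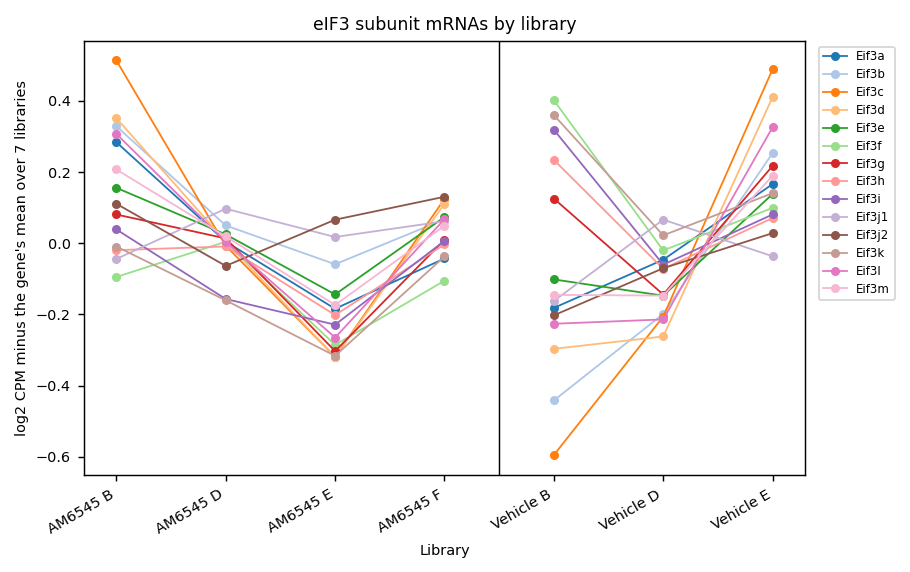
Log2 CPM of the 14 eIF3 subunit genes in each library, relative to each gene's mean over the 7 libraries. Lines join the values of a gene within a group only as a guide. Eif3c peaks in AM6545 B and vehicle E (225 and 221 CPM) and is lowest in vehicle B, where Eif3f is highest.

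Of the subunit-joining and late initiation factors, Eif5 and Eif5b differed by 0.02 (SE 0.11) and -0.16 (SE 0.10), and Eif6, which keeps large subunits from joining early, by -0.15 (SE 0.11). Eif5a held 629.8 to 707 CPM in AM6545 and 630.1 to 790.3 in vehicle (-0.09, SE 0.11). Its scarcer paralog Eif5a2 held 21.9, 28.4, 30.6 and 25.1 CPM in AM6545 B, D, E and F and 20.1, 24.6 and 19.4 in vehicle B, D and E. AM6545 B lay under vehicle D, so the groups overlapped. The log2 fold change was 0.31 (SE 0.13; edgeR, adjusted p 0.324), and 0.13 with GC content and length corrected.

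Eef2, the translocase of elongation, held 436, 402, 307 and 415 CPM in AM6545 B, D, E and F and 494, 443 and 496 in vehicle B, D and E. In CPM its groups did not overlap, and AM6545 E was the lowest by far. Per transcript length the groups overlapped, with AM6545 B at 273 and vehicle B at 265.9. The log2 fold change was -0.29 (SE 0.12; edgeR, unadjusted p 0.0346, adjusted p 0.315), -0.28 once GC content and length were corrected, and -0.19 without AM6545 E. Eef2k, the kinase that inactivates eEF2, held 23.1 to 26.0 CPM in AM6545 and 19.0 to 25.4 in vehicle (0.16, SE 0.12). The log2 ratio of Eef2k to Eef2 per length was -4.04 ± 0.336 in AM6545 (SD, n = 4) and -4.39 ± 0.295 in vehicle (SD, n = 3; exact permutation p 0.257, adjusted 0.343).

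In the eEF1 group 4 of 6 genes were lower. In CPM 3 did not overlap between groups, all of them lower, beside 7.19% of all genes. Per transcript length Eef1a1 stayed apart. Eef1b2 overlapped on that scale (AM6545 F 146.2, vehicle D 142.7), as did Eef1g (AM6545 D 140.5, vehicle E 139.4). The group's median was -0.13, -0.09 without vehicle B and -0.07 without AM6545 E, where 3 of 6 were lower. Eef1a1, the general tRNA carrier, held 807, 808, 677 and 795 CPM in AM6545 B, D, E and F and 966, 827 and 893 in vehicle B, D and E. The closest libraries were AM6545 D and vehicle D, and the log2 fold change was -0.21 (SE 0.11; edgeR, adjusted p 0.374). Eef1b2, the exchange factor that recharges it, held 70.8, 70.6, 66.0 and 74.1 CPM in AM6545 and 98.2, 74.4 and 78.4 in vehicle (-0.25, SE 0.11; adjusted p 0.327). Without vehicle B the difference of Eef1b2 was -0.11. Eef1g, another subunit of the exchange factor complex, held 113 to 135 and 136 to 165 CPM (-0.21, SE 0.10). Eef1d and Eef1e1 differed by -0.04 (SE 0.12) and 0.03 (SE 0.11).

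Eef1a2, the form that replaces eEF1A1 in mature neurons and muscle, held 27.3, 22.1, 16.8 and 23.2 CPM in AM6545 B, D, E and F and 25.1, 18.3 and 23.5 in vehicle B, D and E. The means were almost equal at 22.4 and 22.3 CPM. Per length it made up 2.41% ± 0.312 of the eEF1A pair in AM6545 (SD, n = 4) and 2.07% ± 0.190 in vehicle (SD, n = 3; exact permutation p 0.171, adjusted 0.343). The genes for the methyltransferases of elongation factors were lower for 4 of 4, with a median of -0.20 and no unadjusted p under 0.05. The median was -0.07 without vehicle B and -0.05 with GC content and length corrected, with 3 of 4 lower in each, and -0.09 without AM6545 D. Vehicle B was their highest vehicle library in 4 of 4.

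**Figure D5:**
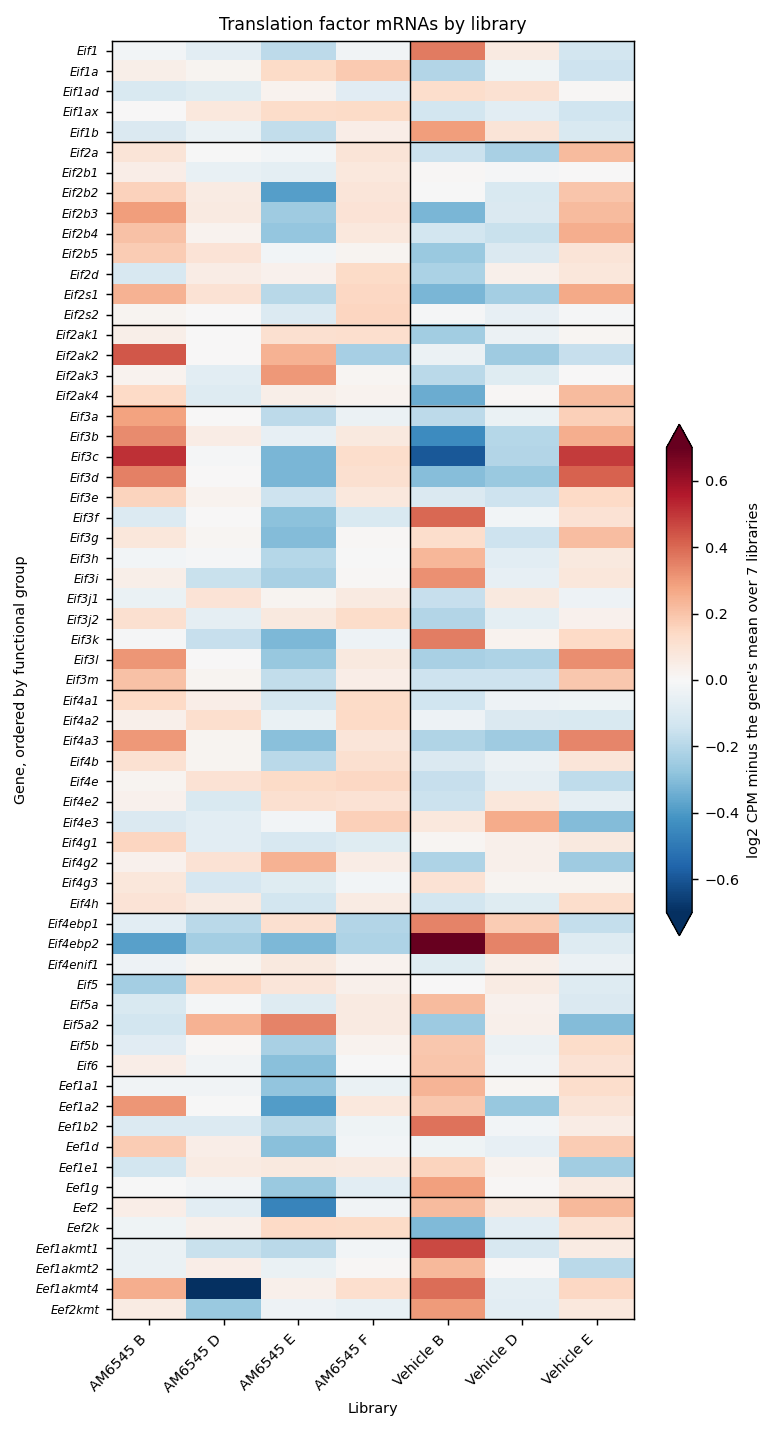
Log2 CPM of the 63 factor genes in the 7 libraries, relative to each gene's mean, with black lines between functional groups and between treatments. Eif4ebp2 is highest in vehicle B, beyond the end of the colour scale, and AM6545 E is the lowest AM6545 library for 38 of 63 genes.

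Members of the known terminal oligopyrimidine class were compared with the ribosomal protein genes, the bulk of that class. Of 9 such factors 7 were lower and 3 had an unadjusted p under 0.05 (Eef2, Eif3f and Eef1b2), beside 8.7% of all genes lower at that p, with a median log2 fold change of -0.21. All 77 ribosomal protein genes were lower, 71 at an unadjusted p under 0.05, with a median of -0.47. With GC content and length corrected the medians were -0.18 and -0.11, with 8 of 9 and 66 of 77 lower. Then 3 factors and 17 ribosomal protein genes had an unadjusted p under 0.05 (edgeR), beside 6.75% of all genes. With the replicate block as well the counts were 2 and 8, beside 2.93%. Without vehicle B the medians were -0.12 and -0.26. There 0 of the 9 factors and 51 of the 77 ribosomal protein genes had an unadjusted p under 0.05, beside 6.46% of all genes. The count of factors was also 0 without AM6545 E, with the replicate block and with limma-voom. Grouped by the letters in the start window instead, the 19 factors with a tract had a median of 0.04 and the 31 without had 0.05.

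Genes around the factors were read from lists of other translation genes. Of 28 tested regulators of initiation 17 were higher and 11 lower, with 4 at an unadjusted p under 0.05 each way, beside 5.86% of all genes higher and 8.7% lower, and 0 past the adjusted threshold (edgeR; lowest adjusted p 0.212). With GC content and length corrected 0 were higher and 2 lower at that p, and without vehicle B 2 and 1. Fmr1, the translational repressor lost in fragile X syndrome, held 44.6 to 53.1 CPM in AM6545 and 27.5 to 42.3 in vehicle (0.49, SE 0.14). Bzw1, an eIF5 mimic, held 184 to 194 and 111 to 167 CPM (0.40, SE 0.13), and Impact, an inhibitor of GCN2, and Paip2b, an inhibitor of poly(A)-binding protein, differed by 0.26 (SE 0.10) and 0.21 (SE 0.09). The poly(A)-binding protein genes Pabpc4 and Pabpc1 differed by -0.57 (SE 0.17) and -0.47 (SE 0.15). Vehicle B was their highest library, and without it they differed by -0.35 and -0.21. Rptor, the scaffold of mTOR complex 1, and Rps6, a ribosomal protein, differed by -0.31 (SE 0.12) and -0.23 (SE 0.10). The groups did not overlap for 10 of the 28 regulators, these 8 genes among them, beside 13.8% of all genes. The 8 were named by their unadjusted p on the same values, so their lack of overlap is no separate support. Without vehicle B the difference was 0.25 for Bzw1, 0.17 for Impact and -0.14 for Rps6. Corrected for GC content and length it was 0.26 for Fmr1, 0.19 for Bzw1, 0.04 for both Impact and Paip2b, -0.18 for Rptor and -0.0011 for Rps6.

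Of 6 termination and recycling genes 5 were higher, beside 51.4% of all genes, and 3 with 1 surrogate variable. Abce1, the ribosome recycling ATPase, and Hbs1l, the rescue factor, had an unadjusted p under 0.05 (edgeR; 0.41, SE 0.15, and 0.28, SE 0.13). Of all genes 5.86% were higher at that p. Both overlapped between groups, through vehicle E, and without vehicle B they differed by 0.26 and 0.16. Corrected for GC content and length they differed by 0.19 and 0.16. Of 10 mitochondrial translation factor genes 6 were higher and 4 lower, with Mtif2, the mitochondrial initiation factor 2, at an unadjusted p under 0.05 (0.25, SE 0.11, or 0.08 corrected). The 2 selenocysteine elongation genes had no unadjusted p under 0.05. Over the 3 smaller lists the edgeR adjusted p was 0.272 or more.

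The factors had 408 transcripts in the deposited transcript table, of which 165 passed the filter. The adjusted p was under 0.05 for 0 of them in edgeR, beside 0.0177% of 33962 transcripts, and 17 (10.3%) had an unadjusted p under 0.05, beside 8.39%. Eif4e-201, which held 79.5% to 82.1% of the gene's counts in every library, differed by 0.25 (SE 0.07; edgeR, adjusted p 0.559). Eif4a2-201 held 244, 243, 209 and 235 CPM in AM6545 B, D, E and F and 176, 204 and 180 in vehicle B, D and E (0.32, SE 0.09), and was 55% ± 2.71 (SD, n = 4) and 49.0% ± 4.58 (SD, n = 3) of its gene's counts. Among lower transcripts, Eif4ebp2-201 held nearly all of its gene's counts and differed by -0.77 (SE 0.22), and Eef1d-207, a minor form, differed by -0.81 (SE 0.25). The edgeR adjusted p was 0.559 for each of these transcripts. DESeq2 called 3 transcripts, the named ones of Eif4e and Eif4a2 and Eif4g1-205, beside 1.27% of all transcripts with an adjusted p in DESeq2. The last was estimated at 6.68, 3.07, 15.4 and 0 CPM in AM6545 B, D, E and F and at 0 in every vehicle library.

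Some values may be shared between genes. The main transcript of 5 factors is covered over at least 50% of its length, at 98% identity or more, by a transcript of another gene. Eif3j2 is covered whole by Eif3j1, so their counts may be split, and Eef1a1, Eef1g, Eif3m and Eif4a1 have processed copies that are not in the gene table. Exons of 18 factors, Eef1b2, Eif5b, Eif6, Eif1b, Eif4a2, Eef2k, Eif2ak1, Eif2ak2 and Eif2ak3 among them, overlap a gene on the opposite strand. The use of strand in counting is not given in the sources used here.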

How the data were processed

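Sequencing libraries of total RNA from hippocampal synaptoneurosomes were prepared with a SMARTer Ultra Low Input kit, per the labels' protocols (4 AM6545, 3 vehicle). The submitters' processing notes name Salmon 1.5.2 and mm10, without their roles. The values deposited by the authors are estimated counts per gene and per transcript, unscaled, and 83.5% of gene values above 0 are not whole. They were rounded. All genes past edgeR's filterByExpr were fitted together with TMM scaling and a robust quasi-likelihood fit without covariates (edgeR 4.0.16, limma 3.58.1, R 4.3.3), with Benjamini-Hochberg adjustment over 14654 genes or 33962 transcripts. Scaling, filter and fit bear on every fold change. CPM are TMM-scaled, and standard errors are the absolute log2 fold change over the square root of F. The median biological coefficient of variation was 12.4%. The code was tested on simulated data.

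Transcript lengths, GC content and gene positions came from GENCODE release M21, where 101527 of 102392 transcript identifiers were found. Gene symbols came from a separate list matched by identifier, which gave a symbol for 22148 of 22248 genes. Deposited identifiers can carry later versions, so lengths may differ from those used by the authors. Lengths were used where matched transcripts held at least 80% of a gene's count. Start windows came from RefSeq, GRCm38.p6, with 13 factor genes unmatched by symbol. Ratios were compared by exact permutation over the 35 splits into 4 and 3 libraries. Alternatives were DESeq2 size factors, total counts and upper-quartile scaling, DESeq2 (1.42.0), limma-voom, other filters, the replicate letter as a block, 1 surrogate variable (sva 3.50.0), a lowess correction for GC content and length (span 0.3), and leaving out each library.

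The genes and lists were chosen with earlier results of these data known. By rule, values were given for listed core factors, the 5 factors each way with the smallest p, and those next to the count limit. These were CPM per library or their range, only a fold change for some core factors, and mean counts next to the limit. Eif1ad, Eif3c, Eif4h, Eif4enif1, Eif4a3, Eif1b, Eif2ak1 and Eef1e1 were named beyond that rule after their values were seen. Of the lists, Gcn1 and Mtrfr were not matched by symbol.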

Additional observations from a re-analysis of the deposited data

Results flagged for a closer look

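Within the 4 AM6545 libraries, 84 values of single factors, groups and ratios were examined for 1 library far from the other 3, by Dixon's 95% criterion. There were 5 such values, where chance gives about 4.2. Eef1a1 held 677 CPM in AM6545 E against 795 to 808 in the others, and the eEF1 group took 0.100% of counts there against 0.115% to 0.117%. Since Eef1a1 makes up most of that group, these are not separate observations. Eif3h held 73.4 CPM in AM6545 E against 83.3 to 84.3. Eef1e1 held 34.1 CPM in AM6545 B against 38.8 to 39.0, and Eif4g1 held 133 CPM there against 111 to 114. Groups of 3, such as vehicle, were not examined this way.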

How the results depend on the processing

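The sources used here do not say whether the replicate letters pair the libraries. Correlations between same-letter libraries, in deviations from the group means, were -0.255, -0.13 and -0.18 for B, D and E. With so few libraries behind each mean, these values cannot decide it. With the replicate block, factors with an unadjusted p under 0.05 numbered 2 in place of 10, and genes past the adjusted threshold stayed at 1. Genes past that threshold numbered 247 with DESeq2, 118 with limma-voom, 2 with a mean of at least 50 counts, 0 with 1 surrogate variable (1721 unadjusted) and 0 with the GC content and length correction (989 unadjusted), and ran from 0 to 944 on leaving out each library, the highest without vehicle E. Factors past it numbered 1 with DESeq2, 1 with limma-voom and 0 to 1 leaving out a library (Eif4ebp2, without vehicle E). Factors with an unadjusted p under 0.05 numbered 5 with the GC content and length correction, 3 with it and the block, and 2 to 13 leaving out a library: 2 without vehicle B or AM6545 E, 3 without AM6545 D, 4 without AM6545 F. Factors without overlap numbered 10 to 21 on leaving out a library, 20 without vehicle D and 21 without vehicle E, where 22.8% and 34.7% of all genes did not overlap. The median log2 fold change of the factors was -0.069 with 1 surrogate variable. Factor transcripts called numbered 3 with DESeq2. Eif3k turned to 0.027 with the GC content and length correction and 0.0198 with the block as well, and Eif4e to -0.0041 with both. The difference in the Eif4a2 share ran from -0.3185 to 1.69 percentage points leaving out a library. Why these values moved was not tested. With 3 vehicle libraries and a median standard error of 0.11 for the factors, differences well above that size could not be told from 0. Log2 fold changes of -0.21 for Eef1a1 and 0.28 for Eif2ak2 had unadjusted p-values of 0.0648 and 0.167 (edgeR). Even -0.73 for Eif4ebp2 had an adjusted p of 0.199.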
